A study of Drosophila melanogaster with 24 samples.

Results

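The ribosome assembly and rRNA processing factors of Drosophila melanogaster described here are genes that serve the building of the ribosomal subunits. Many of their products act on the subunits and then leave them, and some have broader nucleolar roles. The genes were chosen by name, as 47 listed gene symbols, and 38 of them were found among the 9011 genes named by features of the array. All 38 had at least 4 values among the 6 arrays of every time and were tested. The 9 listed genes vito, Nnp-1, RIOK1, CG7338, CG32409, CG11583, CG9253, CG10565 and CG7993 were not analysed here.

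The samples were wing imaginal discs of 3rd instar larvae, epithelial sacs from which the adult wing develops. In tub>dmyc>Gal4 discs the tubulin promoter, active in nearly all cells, expresses the Drosophila Myc gene dmyc from a removable cassette. They were compared with control tub>cd2>Gal4 discs, whose cassette carries cd2 instead. Larvae received a short heat shock to start the clones, so a disc holds cells with and without the cassette side by side, and whole discs were taken at 0, 12, 24 and 48 h. Each of the 24 arrays carried RNA of both genotypes, with 6 arrays per time, dmyc RNA in Cy5 on replicates 1 to 3 and in Cy3 on replicates 4 to 6.

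Ribosomes are assembled mostly in the nucleolus, where RNA polymerase I transcribes the precursor of the rRNAs. A large complex called the small subunit processome folds and cleaves the 18S part, a separate set of factors matures the large subunit, and helicases, methyltransferases, GTPases and kinases drive the steps. In flies and in vertebrates Myc is known as a regulator of nucleolar and ribosome assembly genes, and wing discs with more Myc have larger cells. The study concerns cell competition, where cells of higher Myc level eliminate neighbours of lower level. The comparison described here is between whole discs, not between cells within a disc.

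Every value below is a log2 ratio of dmyc over cd2 discs from which the median of its array was subtracted, so a positive value is higher in dmyc discs relative to the typical feature. No source used here gives the log base, which was taken as 2. The direction is likely rather than stated, since its only basis is that the sample titles put dmyc before cd2. As a check, the mean of each dye orientation over all times was subtracted from its mean at each time. These deviations ran the same way in the 2 orientations, with correlations of 0.84, 0.65, 0.73 and 0.50 across features at 0, 12, 24 and 48 h. Arrays of the same orientation at different times could oppose each other: 12 h replicate 3 and 0 h replicate 3 correlated at -0.75. The labels name the dyes of every array and the times may differ in direction, so the direction was kept. A pair of arrays, all arrays of a time or all 24 arrays deposited the other way round would not have shown in this check. It covers only whether the 2 dye orientations ran the same way, not whether dmyc stands over cd2.

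Each array had a best-matching partner, taken at the same time with the dyes exchanged, with correlations of 0.52 to 0.90, against at most 0.38 for any other array of opposite dye at that time. Shared RNA of partners and separate animals for replicates are both unstated in the labels. Partners were therefore treated as correlated (0.443 as fitted over all features), and the spread behind each p-value is that between these samples and may be technical. Ratios over all features had an SD of 0.18 to 0.29 on an array. Precision is limited by how many arrays there are. A ratio does not show whether a gene is expressed, so the labelled tissue could not be checked against its markers. In RNA of whole discs, fewer cells of a type and less RNA per cell cannot be told apart. The transcript of the Myc gene itself was not analysed here.

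At 12 and 48 h nearly all ribosome assembly factors had ratios above 0, at 24 h most did, and at 0 h they were divided. The number of the 38 genes with a ratio above 0 was 17 for 0 h, 35 for 12 h, 32 for 24 h and 35 for 48 h. The median was -0.046 for 0 h, 0.20 for 12 h, 0.088 for 24 h and 0.155 for 48 h, while the median of all 10661 features tested was within 0.0037 of 0 at each time. Single genes rarely passed the test: 5 genes were higher at 12 h, where 0.947% of all features were, 8 were higher at 48 h, where 0.929% were, and none were lower at either time, where 0.394% and 0.985% of features were.

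On single arrays the same course was seen. At 12 h the median of the 38 genes was 0.17 ± 0.03 (SD, n = 6 arrays), with 81.6% to 89.2% of measured members above 0. At 48 h it was 0.13 ± 0.02 on 6 arrays, with 76.3% to 89.2% above 0. All 12 of these array medians lay above 0. At 24 h the array medians ran from 0.014 to 0.17 and at 0 h from -0.12 to 0.12, so 0 h held arrays on both sides. The 0 h pair of replicates 1 and 4 stood apart from the others of its time, with 32 of the genes above 0 and a median of 0.10, against 13 and 15 genes and medians of -0.068 and -0.088 in the other two pairs. The mean array median was 0.16 with dmyc RNA in Cy5 and 0.18 in Cy3 at 12 h, and 0.13 in each at 48 h.

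**Figure D1:**
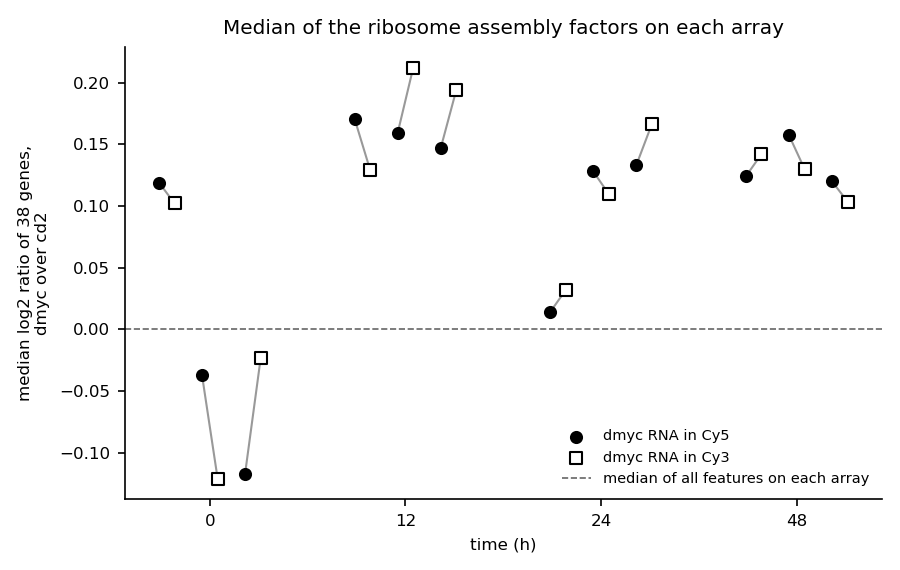
Median log2 ratio (dmyc over cd2) of the 38 ribosome assembly factors on each of 24 arrays, by time in h. Black circles are arrays with dmyc RNA in Cy5, open squares with dmyc RNA in Cy3, grey lines join dye-swap partners, and the dashed line is the median of all features. Each of the 6 arrays at 12 h, at 24 h and at 48 h lies above 0, while at 0 h only replicates 1 and 4 do.

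At an unadjusted p under 0.05, limma placed 24 of 38 genes higher for 12 h (10.4% of all features), 12 for 24 h (8.53%) and 20 for 48 h (7.01%), and none lower at these times, where 5.87%, 8.26% and 6.62% of features were. At 0 h it placed 7 higher (6.32%) and 6 lower (12.5%). Counting arrays instead, 20 of the 37 genes with all 6 values at 12 h were above 0 on every array, where 8.45% of such features were. That count was 11 of 32 for 24 h (8.4%), 16 of 34 for 48 h (5.84%) and 5 of 35 for 0 h (7.48%). Below 0 on every array was pit at 0 h (9.46% of features), and no gene for 12 h (6.41%), 24 h (7.72%) or 48 h (4.88%). With all 24 arrays treated as independent, limma placed 17 genes higher for 12 h (5.32% of features), 6 for 24 h (3.75%) and 12 for 48 h (3.1%). It placed none lower for these times (2.97%, 4.39% and 3.19%), and for 0 h 4 higher (3.84%) and 3 lower (8.24%).

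**Figure D2:**
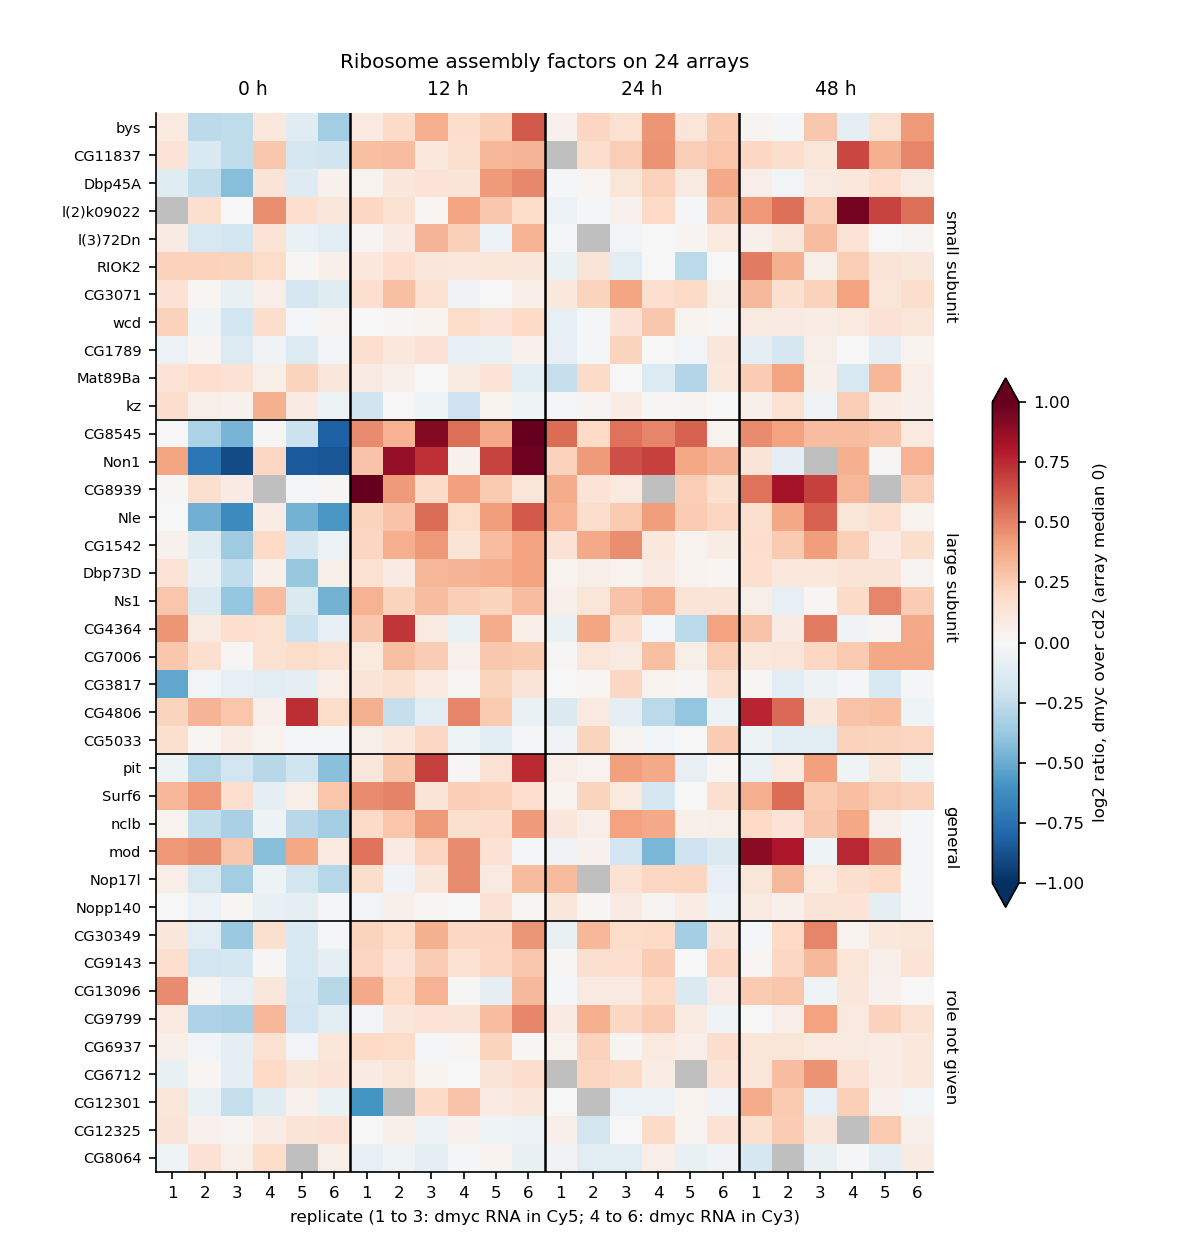
Log2 ratios (dmyc over cd2) of the 38 genes (rows) on 24 arrays (columns, by time and replicate). Rows are grouped as small subunit, large subunit, general or role not given, and ordered by the 12 h ratio. Red is higher and blue lower in dmyc discs, the colour scale ends at -1 and 1, and grey marks a missing value. Non1, CG8545 and Nle turn from blue on 0 h replicates 2, 3, 5 and 6 to red at 12 h.

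Factors of the large subunit included the highest ratios at 12 h. All 12 of them were above 0 at that time, with a median of 0.28, and 3 passed: CG8545, CG8939 and Dbp73D. CG8545 is the fly relative of NOP2, an rRNA cytosine methyltransferase of the nucleolus. It had a lowest value of 0.34, a median of 0.51 and a highest of 1.28 on the 6 arrays at 12 h. All were positive, and the fitted ratio was 0.66 ± 0.12 (SE, n = 6, adjusted p 0.00542). At 24 h its values ran from 0.039 over a median of 0.52 to 0.59, and the fitted ratio of 0.40 had an adjusted p of 0.0754. At 48 h it was 0.31 (adjusted p 0.199) and at 0 h -0.30 (adjusted p 0.151). The 12 h call held without any single array, but not without the pair of 12 h replicates 3 and 6 (0.44, adjusted p 0.0812).

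CG8939, related to the yeast methyltransferase Spb1, had 0.12 as its lowest, 0.33 as its median and 1.03 as its highest value at 12 h. One array stood far above the rest, 12 h replicate 1, with the next value at 0.42. The fitted ratio was 0.40 ± 0.09 (adjusted p 0.0379), and without that array 0.31 (adjusted p 0.0632). At 48 h it was measured on 5 arrays, from 0.24 over 0.54 to 0.83, with a fitted ratio of 0.52 ± 0.10 (adjusted p 0.0063). No array was negative at 12, 24 or 48 h, and the 48 h call was lost without 48 h replicate 2 (0.45, adjusted p 0.0589).

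Dbp73D is a DEAD-box RNA helicase related to yeast Dbp6. Its 12 h values ran from 0.08 over a median of 0.33 to 0.40, with a fitted ratio of 0.28 ± 0.07 (adjusted p 0.0391). It was positive on every array at 12, 24 and 48 h but small at the later times, with fitted ratios of 0.044 (adjusted p 0.813) and 0.11 (adjusted p 0.525). Its 12 h call was lost when any of 10 single arrays was left out.

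Nle, the fly Notchless protein, acts with the AAA ATPase that strips factors from the large subunit precursor. At 12 h its values were 0.18 at the lowest, 0.35 at the median and 0.61 at the highest, with a fitted ratio of 0.38 ± 0.10 (adjusted p 0.0509). At 0 h they ran from -0.64 over -0.47 to 0.076, with a fitted ratio of -0.35 ± 0.10 (adjusted p 0.0408). The 0 h and 12 h arrays did not overlap, and Nle was the only 1 of the 38 genes to pass as lower at 0 h, where 3.9% of features did. None passed as higher at 0 h, where 0.929% of features did. With replicate number as a block Nle did not pass (adjusted p 0.0649), and Surf6 passed as higher at 0 h instead (0.20, adjusted p 0.0485). The 0 h call of Nle was lost without any of 7 single arrays, among them 0 h replicates 2, 3, 5 and 6 (adjusted p 0.092, 0.118, 0.0757 and 0.0878), 12 h replicate 1 (0.052), 48 h replicate 1 (0.0596) and 48 h replicate 4 (0.0536).

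CG1542 is the fly relative of yeast Ebp2. It ran from 0.13 over 0.33 to 0.43 at 12 h, positive on every array, with a fitted ratio of 0.31 ± 0.08 (adjusted p 0.0509). The GTPase gene Non1, related to yeast Nog1, had a wider spread. Its values ran from 0.043 over 0.70 to 0.98 at 12 h (fitted 0.60, adjusted p 0.0509), from 0.23 over 0.40 to 0.68 at 24 h (fitted 0.45, adjusted p 0.13) and from -0.89 over -0.78 to 0.40 at 0 h (fitted -0.45, adjusted p 0.0961). At 48 h it was 0.16 (adjusted p 0.77).

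The small factor CG7006, related to yeast Nip7, was positive on all 24 arrays. Its values ran from 0.009 over 0.16 to 0.27 at 0 h, from 0.044 over 0.26 to 0.30 at 12 h, from 0.014 over 0.11 to 0.30 at 24 h and from 0.11 over 0.24 to 0.38 at 48 h. It passed at 48 h (0.24 ± 0.05, adjusted p 0.0143), while at 0 and 12 h the fitted ratios were 0.16 (adjusted p 0.0955) and 0.20 (adjusted p 0.0509). The nucleostemin gene Ns1, a nucleolar GTPase, was 0.28 at 12 h (adjusted p 0.12), on arrays between 0.22 and 0.35. The fly relatives of pescadillo (CG4364), BOP1 (CG5033), Rrp15 (CG3817) and Nop4 (CG4806) had 12 h ratios of 0.24, 0.033, 0.12 and 0.12, none past the threshold. CG4806 was above 0 at 0 h (0.30, adjusted p 0.17) and at 48 h (0.33, adjusted p 0.19), with -0.14 at 24 h.

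Of the factors of the small subunit, l(2)k09022, CG11837, CG3071 and RIOK2 passed, all at 48 h. None of 11 passed at 12 h in limma (0.947% of all features were higher), where the median was 0.12 and 6 were higher at an unadjusted p under 0.05 (10.4% of features). The 4 that passed at 48 h compare with 0.929% of features, and the median there was 0.13. With all arrays as independent, bys, CG11837, Dbp45A and l(2)k09022 passed at 12 h (5.32% of features). Whether small and large subunit factors differed was not tested.

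The gene of lowest p at 48 h was l(2)k09022, which encodes the fly relative of HEATR1, a large scaffold of the small subunit processome. Its 48 h values ran from 0.25 over 0.55 to 0.96, all positive, with a fitted ratio of 0.57 ± 0.07 (adjusted p 0.000101). This call held without any single array and without any pair. The other times lay lower, with fitted ratios of 0.18 at 0 h (adjusted p 0.166), 0.21 at 12 h (adjusted p 0.124) and 0.072 at 24 h (adjusted p 0.663). Its 12 h arrays ran from 0.018 over 0.20 to 0.40 and its 0 h arrays from -0.001 over 0.16 to 0.47, so both overlapped with 48 h, and the 48 h against 12 h difference of 0.36 ± 0.10 did not pass (adjusted p 0.524).

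CG11837 is related to the 18S rRNA dimethyltransferase Dim1. It was positive on every array measured at 12, 24 and 48 h, with values from 0.17 over 0.25 to 0.45 on 5 arrays at 24 h (fitted 0.26, adjusted p 0.0953). At 48 h they ran from 0.12 over 0.28 to 0.67, with a fitted ratio of 0.34 ± 0.08 (adjusted p 0.02), lost without 48 h replicate 4 (0.28, adjusted p 0.0529). CG3071, the relative of the processome protein Utp15, ran from 0.058 over 0.18 to 0.40 at 24 h (fitted 0.19, adjusted p 0.0719) and from 0.12 over 0.20 to 0.40 at 48 h, where it passed (0.24 ± 0.05, adjusted p 0.0231). It has 2 features, which stood at 0.16 and 0.31 at 48 h. That call too was lost without 48 h replicate 4 (0.20, adjusted p 0.0628), and the first of its features taken alone did not pass (adjusted p 0.27).

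The kinase gene RIOK2, which acts late in small subunit maturation, was positive on every array at 0, 12 and 48 h. It passed at 48 h (0.24 ± 0.06, adjusted p 0.0279, values from 0.062 over 0.19 to 0.52), though not without 48 h replicate 1, 2 or 6 (adjusted p 0.0823, 0.0867 and 0.0516). The DEAH-box helicase gene kz, related to DHX37, was 1 of 3 genes below 0 at 12 h, with values from -0.20 over -0.043 to 0.038 and a fitted ratio of -0.075 (adjusted p 0.492). At 48 h its values ran from -0.037 over 0.062 to 0.24, so the times overlapped. The processome genes wcd, l(3)72Dn, Mat89Ba and CG1789 had 12 h ratios between 0.042 and 0.16. The bystin gene bys and the helicase gene Dbp45A stood at 0.28 (adjusted p 0.0619) and 0.22 (adjusted p 0.0681), each positive on all 6 arrays at 12 h.

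Among nucleolar proteins with broader roles, Surf6 and nclb passed at 12 h, and Surf6 and mod at 48 h. Surf6 is a nucleolar protein conserved from yeast. Its values ran from 0.13 over 0.24 to 0.50 at 12 h and from 0.23 over 0.28 to 0.56 at 48 h, positive on each of these arrays. The fitted ratios were 0.29 ± 0.07 (adjusted p 0.0379) and 0.33 ± 0.07 (adjusted p 0.0126). At 24 h it was 0.059 (adjusted p 0.743) and at 0 h 0.20 (adjusted p 0.113). Its 12 h call was lost without any of 6 single arrays, and its 48 h call held without any single array.

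The gene nclb encodes the relative of PWP1, a chromatin-bound protein that promotes transcription by RNA polymerase I in flies. Its values at 12 h ran from 0.16 over 0.23 to 0.43, with a fitted ratio of 0.28 ± 0.07 (adjusted p 0.0401). At 0 h they ran from -0.35 over -0.26 to 0.039, with a fitted ratio of -0.20 ± 0.07 (adjusted p 0.088). Its 2 features gave 0.23 and 0.32 at 12 h, and the first alone had an adjusted p of 0.0569. The 12 h call was lost without any of 9 single arrays.

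The nucleolin-like gene mod, a Myc target in flies, varied widely between arrays. At 48 h its values ran from -0.041 over 0.64 to 0.91, with 2 of 6 arrays below 0, and the fitted ratio was 0.49 ± 0.13 (adjusted p 0.0452). That call was lost when any of 18 of the 24 arrays was left out. The helicase gene pit, whose mutants arrest larval growth, ran from 0.015 over 0.21 to 0.75 at 12 h (0.33 ± 0.09, adjusted p 0.0681) and was below 0 on every array at 0 h, between -0.42 and -0.053 (-0.24, adjusted p 0.15). Nopp140, a chaperone of small nucleolar RNPs, stayed between -0.037 and 0.051 at all times, and its 2 features had the same sign at each time.

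The remaining 9 genes, for which no role is given here, had a 12 h median of 0.10. None passed at a single time. CG9143 was the one of lowest p at 12 h (0.21 ± 0.05, adjusted p 0.0509), with values from 0.14 over 0.21 to 0.27. Its 6 arrays all lay above 0 and close together. CG12325 (-0.011) and CG8064 (-0.048) were the other genes below 0 at 12 h. CG12325 was on arrays from -0.058 over -0.022 to 0.052 at 12 h and, measured on 5 arrays, from 0.050 over 0.16 to 0.26 at 48 h. CG8064 was also below 0 at 24 and 48 h. The 2 features of CG30349 disagreed at 12 h, with 0.07 and 0.48, and their mean of 0.27 had an adjusted p of 0.111. Others of this set, with their 12 h ratios, were CG13096 (0.19), CG9799 (0.19), CG6937 (0.10), CG6712 (0.091) and CG12301 (0.014).

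**Figure D3:**
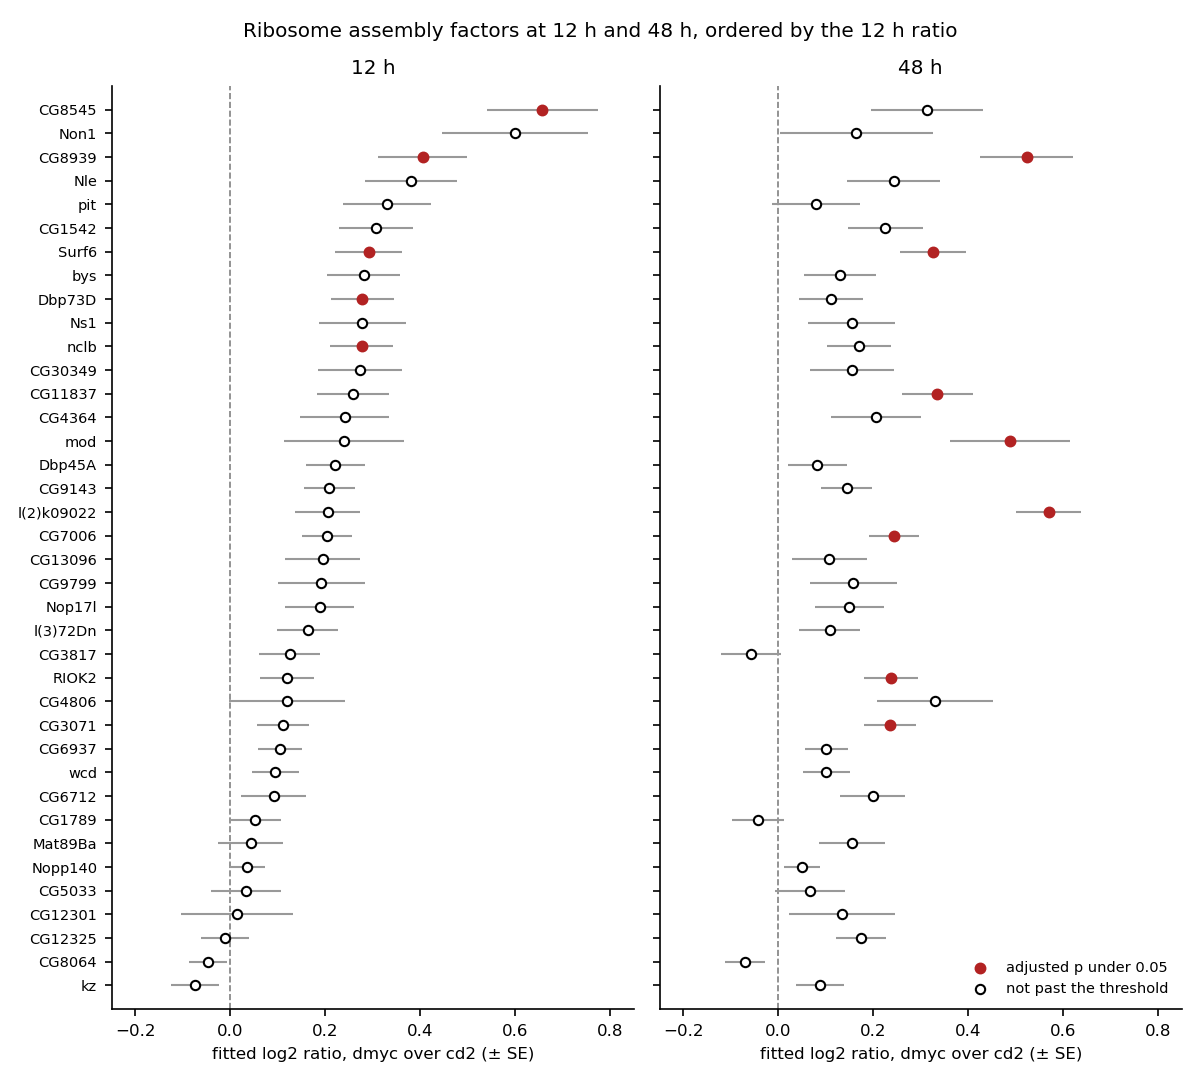
Fitted log2 ratio (dmyc over cd2, dot) with its SE (bar) for the 38 genes at 12 h (left) and 48 h (right), both ordered by the 12 h ratio. Red dots had an adjusted p under 0.05: 5 genes at 12 h and 8 at 48 h, with CG8939 and Surf6 in both.

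These counts moved when single arrays were left out. So did the number of all features that passed, which was 143 at 12 h. The count of 5 at 12 h was 10 without 0 h replicate 1 or 3 (196 and 189 features). It was 1 without 12 h replicate 1 or 6 or 48 h replicate 1 (55, 70 and 101 features). It was 2 without 12 h replicate 2 or 48 h replicate 4 (76 and 105), and 3 without 12 h replicate 3 or 48 h replicate 2 (75 and 126). The count of 8 at 48 h was 5 without 48 h replicate 2 or 4, where the number of features is not given here. Leaving out a pair gave 1 to 14 genes at 12 h and 1 to 8 at 48 h. The 14 came without the 0 h pair of replicates 1 and 4, where 345 features passed. At 12 h it was 1 without the pair of replicates 2 and 5 (115 features), and at 48 h 1 without the pair of replicates 2 and 5 of that time. With partners averaged, 0 genes passed at 12 h, where 0 of all features did, and 3 at 48 h. With only the arrays of the time itself 0 genes passed at 12 h, where 1 of all features did, and 2 at 48 h. The medians moved less, but few of these fits could move them: leaving out an array of 0 or 24 h left the 12 h median at 0.1992. Over all single arrays left out, the median of the 38 genes lay between 0.18 and 0.21 at 12 h and between 0.15 and 0.17 at 48 h.

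No gene passed at 24 h in limma, higher or lower, where 0.619% and 0.994% of features did. The pair of replicates 1 and 5 had a median of 0.021 over the 38 genes, with 24 above 0, and the other two pairs had 0.13 each, with 31 and 29 above 0. CG8545 passed without 12 h replicate 6 (0.40, adjusted p 0.041).

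Between 0 h and 12 h, 11 of 38 ratios rose past the threshold and none fell, where 9.05% of all features rose and 3.35% fell. At an unadjusted p under 0.05, 18 rose (17.2% of features) and 2 fell (9.95%). With all arrays as independent 17 rose (15.1%) and 2 fell (8.75%). The largest of the 11 differences were those of Non1 (1.05 ± 0.22, adjusted p 0.004), CG8545 (0.96 ± 0.17, adjusted p 0.00143), Nle (0.73 ± 0.14, adjusted p 0.00229), pit (0.57 ± 0.13, adjusted p 0.00726) and nclb (0.48 ± 0.09, adjusted p 0.00314). The others were bys (0.41), CG1542 (0.38), Dbp73D (0.35), Nop17l (0.35), Dbp45A (0.35) and CG9143 (0.28). All 11 were below 0 at 0 h and above 0 at 12 h in the fit. Of these genes only Nle had passed at 0 h.

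Between 0 h and 24 h the ratios of Non1 (0.90 ± 0.22, adjusted p 0.0138), CG8545 (0.70 ± 0.17, adjusted p 0.0117), Nle (0.63 ± 0.14, adjusted p 0.00815) and nclb (0.38 ± 0.09, adjusted p 0.0159) rose, where 6.16% of features did, and none fell, where 2.47% did. At an unadjusted p under 0.05, 14 rose (14.4%) and 3 fell (10.1%), and with all arrays as independent 13 rose (12.2%) and 3 fell (8.08%). Between 0 h and 48 h no gene passed in limma, and 0.0938% of features rose and 0.0375% fell. There the median difference was 0.19, 36 of 38 differences were above 0, and 14 genes had an unadjusted p under 0.05 in the rising direction against 10.7% of features, and 1 in the falling direction against 6.43%. The lowest adjusted p were those of Nle (0.59, 0.0655), nclb (0.37, 0.0843) and l(2)k09022 (0.39, 0.0843). With all arrays as independent, 10 genes rose (3.78%) and none fell (2.55%). Between 12 h and 48 h no gene passed in limma in either direction, where 0.00938% of features rose and 0.00938% fell. At an unadjusted p under 0.05, 3 rose (2.15%) and none fell (4.56%), and none passed with arrays as independent (0.0188% and 0.0563% of features). The lowest adjusted p there were those of l(2)k09022, CG12325 (0.19, adjusted p 0.681) and kz (0.16, adjusted p 0.695).

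The differences from 0 h share the 0 h arrays and so are not independent of each other, and they rest on which arrays stand for 0 h. Without the 0 h pair of replicates 3 and 6, 3 genes rose at 12 h and 0 at 24 h, and without the pair of replicates 2 and 5, 5 and 0. Without the pair of replicates 1 and 4 the counts were 17 and 13, and 11 at 48 h. The 24 h count was also 8 without 0 h replicate 1 and 0 without the 24 h pair of replicates 3 and 4, and the 12 h count was 5 without the 12 h pair of replicates 3 and 6. The 48 h count was 1 without 0 h replicate 4, 48 h replicate 6 or the 12 h pair of replicates 3 and 6. The numbers of all features that rose in these fits are not given here. At 0 h itself the number of all features that passed moved too, from 515 in the main fit. It was 15 without the 0 h pair of replicates 3 and 6, 55 without 2 and 5, and 804 without 1 and 4. If the sign of the 0 h pair 3 and 6 were turned, a change chosen after seeing the data, none of the 38 genes would pass for 12 or 24 h against 0 h. In that fit 0 of all features passed at 0 h itself, and the number for the differences is not given here.

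**Figure D4:**
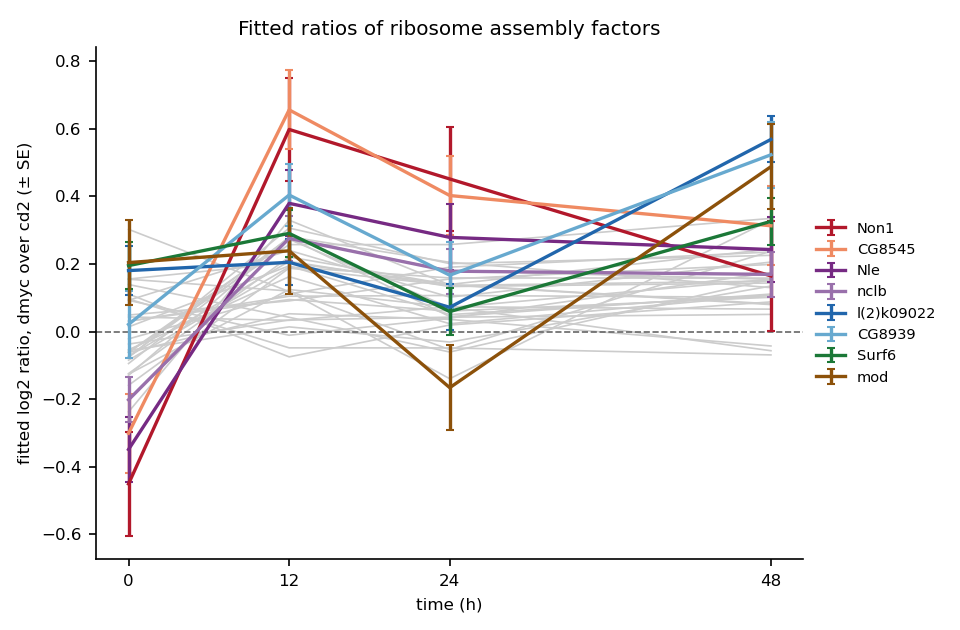
Fitted log2 ratios (dmyc over cd2) with SE bars at 0, 12, 24 and 48 h. Non1, CG8545, Nle and nclb lie below 0 at 0 h and are high at 12 h, l(2)k09022, CG8939, Surf6 and mod have their highest values at 48 h, and grey lines are the other 30 genes.

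As a description of the fitted ratios, 28 of the 38 genes were above 0 at 12, 24 and 48 h. Of these 28, 18 were below 0 at 0 h, and the other 10 were above 0 at all 4 times, among them CG7006, Surf6, l(2)k09022 and CG8939. The ratio was higher at 12 h than at 24 h for 31 genes. Of all features, 51.1% were above 0 at 12 h, 51.9% at 24 h and 50.8% at 48 h. Shares of all features with these patterns over several times were not counted, so the patterns cannot be called particular to the 38 genes. Across the 38 genes the fitted ratios correlated at 0.72 between 12 and 24 h, 0.42 between 12 and 48 h and 0.070 between 24 and 48 h, with 0.61, 0.52 and 0.41 over all features. Between 0 h and 12, 24 and 48 h the correlations were -0.60, -0.78 and 0.29, with -0.39, -0.30 and 0.14 over all features. These genes share arrays and are not replicates.

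Other nucleolar genes were taken from lists of related machinery. Of 6 measured core proteins of small nucleolar RNPs, all were above 0 at 12, 24 and 48 h. Already at 0 h 2 passed as higher (0.929% of all features), with a list median of 0.20, and the median difference of 12 h from 0 h was -0.099, with 1 gene rising and 1 falling (9.05% and 3.35% of features). At 12 h 1 passed as higher (0.947% of features). It was the fibrillarin gene Fib, the methyltransferase of box C/D particles (0.56 ± 0.11, adjusted p 0.00792). Nop56 (0.29, adjusted p 0.198) and Gar1 (0.16, adjusted p 0.619) did not pass. The list had a median of 0.16 at 12 h and 0.36 at 48 h, where 1 gene passed (0.929% of features). Of 7 measured genes of RNA polymerase I and its factors, 1 passed as higher at 0 h, 1 at 12 h and 5 at 48 h (0.929%, 0.947% and 0.929% of features). Polr1A, the largest subunit, stood at 0.39 ± 0.07 at 12 h (adjusted p 0.00792), with Polr1C at 0.21 (0.0822) and Polr1F at 0.20 (0.12). The medians of this list were 0.090 for 0 h, 0.20 for 12 h and 0.23 for 48 h.

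Genes of the exosome, which trims rRNA precursors, had a median of 0.039 at 12 h, and none of 9 passed there in limma (0.947% of features were higher), with 1 higher at an unadjusted p under 0.05 (10.4%). At 0 h 1 passed as higher (0.929%), with a list median of 0.077. The lowest p were those of Rrp46 (0.14), Ski6 (-0.13) and Mtr3 (0.11). Of 25 measured cytoplasmic ribosomal protein genes, whose products stay in the ribosome, 14 were above 0 at 12 h with a median of 0.0088, and 1 passed as higher (0.947% of features), RpL3 (0.50 ± 0.13, adjusted p 0.046). RpL17 (0.13) and RpS28b (0.19) followed. At 0 h 3 passed as higher and 1 as lower (0.929% and 3.9% of features), with a median of 0.074. At 48 h the median was -0.0013 and none passed in limma, with 2 higher and 1 lower at an unadjusted p under 0.05 (7.01% and 6.62%). Differences between these lists and the assembly factors were not tested.

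Markers of tissues attached to or near the disc also moved. The mean of 5 measured fat body markers, of 10 listed, was above 0 on every 48 h array, from 0.48 to 1.31. It ran from -0.28 to 1.34 at 12 h, from -0.58 to 1.29 at 24 h and from -0.999 to 0.97 at 0 h. In limma none of the 5 passed at a single time. At 48 h 4 were higher at an unadjusted p under 0.05 (7.01% of all features), and at 12 h 1 was higher (10.4%) and 1 lower (5.87%). At 12 h the pairs had fat body means of 1.17 (replicates 1 and 4), 0.28 (2 and 5) and -0.22 (3 and 6), beside medians over the 38 genes of 0.12, 0.20 and 0.15. At 24 h the pair of replicates 1 and 5 joined the highest fat body mean (1.2) to the lowest median of the assembly factors (0.021), and the others had -0.32 and -0.54. At 0 h the pair of replicates 1 and 4 had both the highest fat body mean (0.89) and the highest median. The part of fat body RNA in the values of any time was not tested.

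Of 6 tracheal markers, 1 was lower at 0 h (3.9% of all features) and 1 higher at 12 h (0.947%), verm (0.50, adjusted p 0.00909). Between these times 2 rose and 1 fell (9.05% and 3.35% of all features). At 12 h 5 of the 6 were above 0, and Gasp was the lowest (-0.16). Of 10 wing disc genes, 1 was lower at 0 h and nub was higher at 12 h (0.29, adjusted p 0.00572), and 3 rose and 1 fell between these times (the same shares of all features apply). At 12 h 2 were lower and 1 higher at an unadjusted p under 0.05 (5.87% and 10.4% of features). Next to nub in p there were en (-0.33, adjusted p 0.122) and vg (-0.25, adjusted p 0.191). At 24 h 1 wing disc gene passed as lower (0.994% of features). The mean over tracheal markers ran from 0.061 to 0.36 on 12 h arrays and from -0.40 to 0.068 on 0 h arrays. The mean over wing disc genes ran from -0.16 to 0.21 on 12 h arrays and from -0.24 to 0.046 on 0 h arrays. Of 6 hemocyte and 4 myoblast markers, none passed at 12 h in limma or at an unadjusted p under 0.05, and 1 hemocyte marker fell and 1 myoblast marker rose from 0 h to 12 h (3.35% and 9.05% of features). The hemocyte mean ran from -0.18 to -0.005 on 12 h arrays and from 0.036 to 0.27 on 0 h arrays, without overlap, and all 6 differences of 12 h from 0 h were below 0, 4 at an unadjusted p under 0.05 (9.95% of features fell). The myoblast mean ran from -0.059 to 0.16 on 12 h arrays and from -0.38 to -0.038 on 0 h arrays, and all 4 differences were above 0, 2 at an unadjusted p under 0.05 (17.2% of features rose). The part of these 4 marker lists in the differences between 0 h and 12 h was not tested.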

How the data were processed

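Per the labels' protocols, total RNA of wing discs was amplified in 2 rounds and labelled with Cy5 or Cy3, with dyes exchanged on 3 of 6 arrays per time. The deposited values were taken as log2 ratios from their spread around 0 (array medians -0.009 to 0.008). Nothing used here names the scanner, background correction, normalization or log base, so how far they changed the sizes of ratios is not known, and no signal over background comes with the values.

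Of 12359 features, 169 at print-block positions where no feature is listed with a gene were left out as controls. Features naming 1 gene were named from the platform annotation (10289, of which 9896 matched RefSeq by gene ID), those naming several (56) or none (1845) were kept unnamed. Arrays were centred on their medians, features of a gene averaged, and 4 values of 6 required at each time. This left 10661 features (8815 named genes), with 1.58% of values missing. Missing values were left missing in every fit.

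limma 3.58.1 (R 4.3.3) fitted the ratios with 1 coefficient per time, 1 for dye, and dye-swap partners as a random block (correlation 0.443), and p-values were adjusted by Benjamini-Hochberg over all features with a threshold of 0.05. An SE is pooled over all 24 arrays. Partners were found from the values, which the labels do not pair (at 24 h replicates 1 with 5, 2 with 6, 3 with 4, otherwise 1 with 4, 2 with 5, 3 with 6). The genes, lists, design and alternatives were chosen with earlier results of these data known. Any of the 38 genes could be named, values by array were given for the 8 genes of lowest p at 12 h and the 3 of lowest p in each other comparison, and the 3 genes of lowest p at 12 h from each list of related machinery. Others whose array values are given (RIOK2, mod, pit, Ns1) were picked after the values were seen. Groups of genes by subunit follow known roles of their relatives.

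The fit was tested on simulated data for the 12 h comparison over 10661 features: 71 of 100 shifts of 0.3 and 95 of 100 shifts of 0.6 were recovered, with 3 false calls. Shifts were rises and falls, and the noise was normal, with the partner correlation set to the fitted 0.443. Since the data were made under the model of the fit, this does not show how the fit behaves on these arrays. Alternatives were arrays as independent, partners averaged, only the arrays compared, no dye coefficient, a replicate block, no centring, scaling, quantile normalization, complete genes, no minimum, array weights, features not averaged, and each array or pair left out. Turning the sign of 0 h arrays was added after seeing the data.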

Additional observations from a re-analysis of the deposited data

Results flagged for a closer look

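Of 88 groups of arrays, 21 genes and the median of the 38 genes at each of 4 times, 2 held 1 value far from the others, where about 5% of groups would do so by chance. Both were at 12 h. CG8939 stood at 1.03 on 12 h replicate 1, with the next array at 0.42. RIOK2 stood at 0.167 on 12 h replicate 2, with the next array at 0.12.

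The ratio of dmyc over cd2 discs differed between 12 and 0 h, by limma's test of the difference itself, for 11 genes: CG8545 (0.96), Nle (0.73), nclb (0.48), Non1 (1.05), pit (0.57), Dbp45A (0.35), bys (0.41), CG9143 (0.28), Dbp73D (0.35), CG1542 (0.38) and Nop17l (0.35). Between 24 and 0 h it differed for Nle (0.63), CG8545 (0.70), Non1 (0.90) and nclb (0.38). These values are differences of log2 ratios and share the 0 h arrays.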

How the results depend on the processing

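The median of the 38 genes stayed above 0 at 12, 24 and 48 h under every alternative run, but many alternatives could not move it. The 12 h median was 0.1992, as in the main fit, with arrays as independent, partners averaged, only the arrays compared, no dye coefficient or a replicate block. It was the same without any single 0 or 24 h array. It was 0.195 with scaling, 0.175 with quantile normalization, 0.2058 with complete genes, 0.2009 with array weights and 0.1928 with features not averaged. Counts of genes past the threshold moved widely. Leaving out single arrays gave 0 to 2 genes at 0 h, 1 to 10 at 12 h, 0 to 1 at 24 h, 5 to 8 at 48 h, 10 to 14 for 12 against 0 h, 4 to 8 for 24 against 0 h and 0 to 1 for 48 against 0 h. Leaving out pairs gave 0 to 4, 1 to 14, 0 to 2, 1 to 8, 3 to 17, 0 to 13 and 0 to 11 in the same order, with fewer arrays in each fit. The number of all features past the threshold moved too. At 12 h it was 55 to 196 without a single array and 49 to 345 without a pair, against 143 in the main fit. The 0 h median of -0.046 ranged from -0.075 to 0.010 without a pair, and turned positive (0.010) without replicates 3 and 6.

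With arrays as independent the counts were 7, 17 and 6 at 0, 12 and 24 h, and 19, 16 and 10 for 12, 24 and 48 against 0 h. Array weights gave 14 at 0 h, 6 higher and 8 lower (5.41% and 12.1% of features), and 14 at 12 h, all higher (2.31%). They gave 1 at 24 h, higher (0.779%). For 12 against 0 h they gave 18, with 17 rising (15.6%) and 1 falling (8.27%). For 24 against 0 h they gave 16, with 13 rising (12.1%) and 3 falling (7.01%), and for 48 against 0 h 10, all rising (3.28%). Partners averaged gave 0 at 0 h, 0 at 12 h, 3 at 48 h, and 4 and 0 for 12 and 24 against 0 h. In that fit 0 of all features passed at 0 h and 0 at 12 h. With only the arrays compared, 0 passed at 0 h, 0 at 12 h and 2 at 48 h. There 0 of all features passed at 0 h and 1 at 12 h. Quantile normalization gave 0, 3 and 5 at 0, 12 and 48 h, with 421 of all features at 0 h and 148 at 12 h. Without the dye coefficient 9 passed at 12 h (197 features) and 1 for 48 against 0 h. Features not averaged gave 9 at 12 h (192 features) and 1 at 24 h, and complete genes alone 4 at 48 h, where fewer genes were tested. The cause of these changes was not tested.

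With replicate number as a block, 3 genes passed at 12 h (0.516% of features were higher), 7 passed at 48 h (0.825%), and at 0 h Surf6 passed as higher and Nle no longer as lower. The numbers share only a label: deviations of 36 same-numbered pairs of arrays correlated between -0.53 and 0.49, and 4 of 24 arrays correlated best with their own number.

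In the turns chosen after seeing the data, turning all 0 h arrays gave a 0 h median of 0.046 and 9 genes at 12 h (176 features). It gave 1, 0 and 8 genes for 12, 24 and 48 against 0 h, where the numbers of all features are not given here. Nle (0.35), nclb (0.20) and CG7006 (-0.16) at 0 h reversed, as did Nle and nclb for 24 against 0 h (-0.070 and -0.023) and 48 against 0 h (-0.11 and -0.033). Turning replicates 3 and 6 alone gave a median of 0.055, with 0, 1 and 5 genes at 0, 12 and 48 h and 0 for 12 and 24 against 0 h. In that fit 0 of all features passed at 0 h and 36 at 12 h. The ratios of Nle (0.058) and nclb (0.022) at 0 h reversed.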
